A study of Homo sapiens with 79 samples.

Results

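Among the 578 cells captured from day 60 retinal organoids, 81 carried at least 5 reads of ATOH7 or at least 5 reads of POU4F2 and are described here against the remaining 497 cells of that day. The choice rests on the reads of these 2 genes alone, so their levels in the chosen cells are a description and not a result. ATOH7 alone chose 36 cells (ATOH7-only cells), POU4F2 alone chose 27 (POU4F2-only cells), and 18 cells passed for both genes (co-positive cells). The organoids were grown from 1 human embryonic stem cell line, H9 by the study's text and CRX-GFP by the sample labels, and all received the inhibitor Y27632 at the start of differentiation and later foetal calf serum, T3, taurine and retinoic acid. Cells were dissociated, captured on Fluidigm C1 chips and measured by SMART-Seq v4, which yields reads over whole transcripts without molecular identifiers. Organoids of day 60 filled 1 chip, of which 19 columns are labelled as samples, organoids of day 90 filled 1 chip and organoids of day 200 filled 2, which gives 1976 cells in all. All cells came from the same line and culture protocol, and there is no second culture of day 60. Cells and columns of 1 chip are therefore not replicates, no test was made, and a difference between groups of cells is a difference within this chip. The intervals in parentheses are 95% exact binomial (Clopper-Pearson) intervals for shares of cells and exact Poisson intervals for sums of reads, and they cover counting error only.

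ATOH7 is a basic helix-loop-helix factor that progenitors of the early retina turn on around their last division, and retinal ganglion cells (RGCs), the first neurons of the retina, depend on it. POU4F2 (BRN3B) is a POU homeodomain factor that comes on in newly formed RGCs, and ISL1 is a LIM homeodomain factor that acts together with it on genes of RGC differentiation and axon growth. Cells with ATOH7 also give rise to cones and to horizontal and amacrine cells, and POU4F2 is also used by sensory neurons outside the retina.

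ATOH7 lies on chromosome 10 (68230595 to 68232113, minus strand), POU4F2 on chromosome 4 (146638893 to 146642474, plus strand) and ISL1 on chromosome 5 (51383448 to 51394730, plus strand) of GRCh38. In GENCODE 44 no other annotated gene overlaps any of them. Whether any of their reads came from transcripts outside this annotation was not tested. The 250 bases before each start in RefSeq (GRCh38.p14) are shown because these are the genes that choose or mark the cells. Capitals mark E-boxes, the sites of basic helix-loop-helix factors, of the letters CAGCTG or of the letters CATATG or of the letters CAGATG, each searched on both strands and none overlapping another.
ATOH7, chr10:68232114-68232363, minus strand: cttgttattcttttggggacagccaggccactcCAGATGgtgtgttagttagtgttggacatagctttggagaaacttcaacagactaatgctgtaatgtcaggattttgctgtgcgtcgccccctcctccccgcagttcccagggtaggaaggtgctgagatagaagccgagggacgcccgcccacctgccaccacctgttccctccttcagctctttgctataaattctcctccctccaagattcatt
POU4F2, chr4:146638643-146638892, plus strand: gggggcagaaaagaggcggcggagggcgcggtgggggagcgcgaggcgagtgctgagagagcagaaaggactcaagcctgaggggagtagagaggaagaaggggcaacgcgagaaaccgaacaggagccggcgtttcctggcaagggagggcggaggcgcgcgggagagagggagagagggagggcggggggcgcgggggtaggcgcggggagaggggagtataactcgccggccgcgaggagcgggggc
ISL1, chr5:51383198-51383447, plus strand: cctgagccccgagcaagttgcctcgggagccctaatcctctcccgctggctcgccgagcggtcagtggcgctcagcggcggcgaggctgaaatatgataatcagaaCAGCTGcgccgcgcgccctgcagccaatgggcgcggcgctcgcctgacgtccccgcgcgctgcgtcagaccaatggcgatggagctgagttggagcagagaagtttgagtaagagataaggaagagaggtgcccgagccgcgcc
The ATOH7 window holds 1 match, the ISL1 window 1 and the POU4F2 window 0, while 26.1% of the 35116 RefSeq windows of this length hold at least 1. A match is a description of the letters and not a bound site.

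Most cells had no read of either choosing gene, and most chosen cells lay well above the limit. ATOH7 had no read in 500 of the 578 cells and at least 20 reads in 35, with 16 cells at 1 read, 8 at 2 to 4 reads, 7 at 5 to 9 and 12 at 10 to 19. For POU4F2, 516 cells had no read and 32 had at least 20, with 14 cells at 1 read, 3 at 2 to 4, 5 at 5 to 9 and 8 at 10 to 19. The cells just inside the limit had 5, 5 and 6 reads of ATOH7 and 5, 6 and 6 of POU4F2, and those just outside it had 4, 4 and 3 and 3, 3 and 2. In counts per 1000000 reads of the cell (CPM), the 54 cells that passed for ATOH7 ranged from 25.8 to 1150 with a median of 193, and the 45 that passed for POU4F2 from 19.2 to 1100 with a median of 168. Co-positive cells had medians of 341 CPM for ATOH7 and 266 CPM for POU4F2, against 149 CPM of ATOH7 in ATOH7-only cells and 122 CPM of POU4F2 in POU4F2-only cells. Thus 33.3% of ATOH7 cells (18 of 54, 21.1 to 47.5) also passed for POU4F2.

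The chosen cells made up 14.0% of the day 60 cells (11.3 to 17.1) and occurred in each of the 19 columns, with 1 to 10 cells a column. Their share ran from 2.94% to 31.3%, and the highest share was that of column 16, with 10 of its 32 cells. ATOH7-only cells occurred in 16 columns, POU4F2-only cells in 15 and co-positive cells in 11. The columns of this chip held 4008924 to 7575966 reads, with a median of 5431833. The chosen cells had a median of 185888 reads and 3842 genes, against 161676 reads and 3808 genes in the other cells, and median mitochondrial shares of 7.36% and 6.87%. Since a limit in reads is easier to pass in a deep cell, shares were also taken after each cell was thinned to 50000 reads, with a limit of 2 reads. A doublet caller marked 1 day 60 cell and none of the chosen cells. Median depths were 168767.5 reads and 3622.5 genes in co-positive cells, 192051.5 reads and 3844.5 genes in ATOH7-only cells and 197216 reads and 3923 genes in POU4F2-only cells. Beyond the doublet caller, whether a co-positive cell could be a pair of captured cells was not tested.

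**Figure D1:**
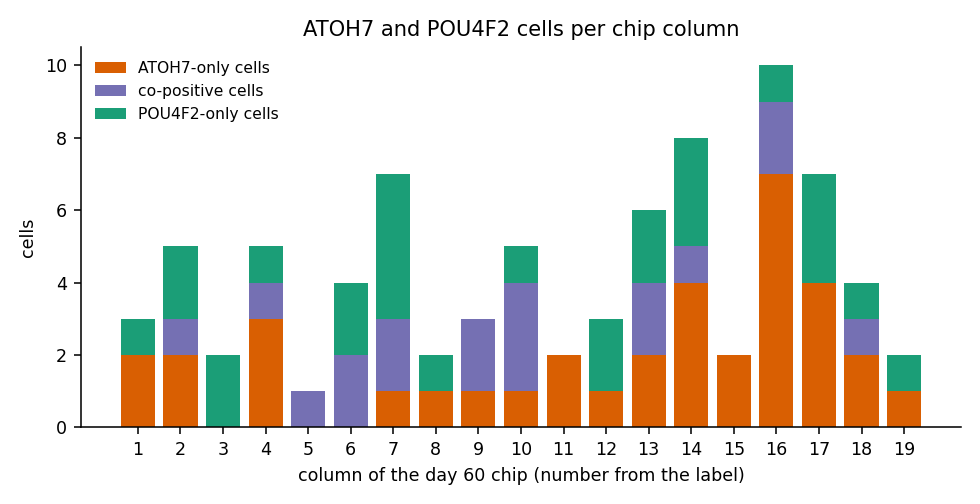
Stacked bars give the number of ATOH7-only, co-positive and POU4F2-only cells in each of the 19 labelled columns of the day 60 chip. Each column holds at least 1 chosen cell, and column 16 holds the most, 10.

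ISL1, the third marker of these cells, was present in a minority of them and almost always together with POU4F2. At least 5 reads of ISL1 were found in 14 of 81 chosen cells (17.3%, 9.78 to 27.3) and in 11 of 497 other cells (2.21%, 1.11 to 3.93). After thinning the counts were 14 and 12 cells. The ISL1 cells among the chosen ones ranged from 33.4 to 870 CPM with a median of 455, and those among the other cells from 47.4 to 1092 CPM with a median of 261, so the groups differed in how many cells had ISL1 while the levels of such cells overlapped. Summed over cells, ISL1 stood at 80.6 CPM (76.2 to 85.1) against 8.61 CPM (8.01 to 9.24), a log2 fold of 2.65 on the CPM + 5 scale used throughout. ISL1 passed in 8 of 27 POU4F2-only cells (29.6%, 13.8 to 50.2), 5 of 18 co-positive cells (27.8%, 9.70 to 53.5) and 1 of 36 ATOH7-only cells (2.78%, 0.0703 to 14.5). All 14 ISL1 cells also had at least 5 reads of STMN2, and 13 had at least 5 reads of GAP43. They came from 9 of the 19 columns. All 14 had SIX3 and PAX6, 12 had ONECUT2 and 1 had OTX2. Most of the chosen cells thus lacked the third marker, and they are named here by the genes that chose them.

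To compare all genes, reads were summed over the chosen and over the other cells, and a gene was counted as higher or lower where the sums differed at least 2-fold in CPM + 5. A gene entered the comparison if the group with more of it reached 20 CPM and had reads in 10% of its cells. Of 8099 such genes, 288 (3.56%) were higher and 303 (3.74%) lower in the chosen cells, ATOH7 and POU4F2 left out. These counts carry no error estimate and are given as a background for the lists. Sums of few cells can rest on a single cell: without the cell with the most reads of the gene in each group, 146 of the 288 higher genes and 302 of the 303 lower genes stayed past the 2-fold limit. For this reason shares of cells with at least 5 reads are given beside the sums.

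Regulators of RGC fate were more frequent in the chosen cells. Of the 7 listed regulators that passed the minimum, apart from the choosing genes, 5 were at least 2-fold higher (ISL1, EBF4, ONECUT1, ONECUT2 and KLF7), none lower, and the median log2 fold was 1.25, against -0.024 over all genes. ONECUT2, a homeodomain factor of early born retinal neurons, had at least 5 reads in 47 of 81 chosen cells (58.02%, 46.5 to 68.9) and 108 of 497 others (21.7%, 18.2 to 25.6). It was higher in 15 of 19 columns, where the median gene was higher in 7. KLF7, a zinc finger factor of axon growth, passed in 47 chosen cells (58.02%) and 154 others (30.99%, 26.9 to 35.3). ONECUT1 passed in 11 chosen cells (13.6%) and 19 others (3.82%), and EBF4 in 13 (16.0%) and 45 (9.05%). DLX1, a homeodomain factor that acts beside POU4F2 in RGC development, did not reach 20 CPM but ranked high by its share of cells, with 12 chosen cells (14.8%, 7.90 to 24.5) and 3 others (0.604%, 0.125 to 1.75). DLX1 cells were spread unevenly, with 7 of 18 co-positive cells, 4 of 36 ATOH7-only cells and 1 of 27 POU4F2-only cells. Its relative DLX2 passed in 3 co-positive, 0 ATOH7-only and 2 POU4F2-only cells, and in 3 others.

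Genes of neurons and their axons were higher as a group. Of 24 listed genes that passed the minimum, 7 were at least 2-fold higher (GAP43, STMN2, PRPH, SLC17A6, ELAVL2, CNTN2 and NRN1), none was lower, 23 had a log2 fold above 0, and the median was 0.79. STMN2, a microtubule regulator of growing axons, passed in 60 of 81 chosen cells (74.1%, 63.1 to 83.2) and 246 of 497 others (49.5%, 45.02 to 53.98), or in 59 and 256 cells after thinning. Its sum was 1454 CPM against 532.5 CPM, and it was higher in 18 of 19 columns. GAP43, a growth cone protein, passed in 64.2% of the chosen cells (52.8 to 74.6) and 43.5% of the others (39.1 to 48.0). CNTN2, an axonal adhesion molecule, passed in 23.5% (14.8 to 34.2) and 8.25% (5.99 to 11.0), with a log2 fold of 2.64, and 10 of its 19 chosen cells were co-positive. PRPH, an intermediate filament of neurons with long axons, passed in 19.8% (11.7 to 30.1) and 7.24% (5.12 to 9.89), with a log2 fold of 3.11, and 22.6% of its reads in the chosen cells came from 1 cell. ROBO1, a receptor of the SLIT guidance cues, was the gene of the list below 0, with a log2 fold of -0.89.

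Since many of the other day 60 cells are not neurons, the chosen cells were also set against the 246 other cells with at least 5 reads of STMN2, a comparison chosen after the data had been seen. Among 8088 genes, 269 (3.33%) were at least 2-fold higher and 325 (4.02%) lower. The neuron and axon list then had 3 of 24 genes higher (PRPH, SLC17A6 and CNTN2) and a median log2 fold of 0.15, against 0.79 over all other cells. STMN2 is itself a gene of this list, and all 246 comparison cells but only 60 of 81 chosen cells passed for it. The lower median thus follows in part from the choice of the comparison cells. ISL1, EBF4 and ONECUT2 stayed above 2-fold, at 2.03, 1.12 and 1.29, whereas KLF7 was at 0.96 and ONECUT1 at 0.30.

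Proneural genes were also higher. The chosen cells had 6 of 10 measured genes of this list at least 2-fold higher (NEUROD1, NEUROD4, HES6, INSM1, NHLH1 and BHLHE22), none lower, and a median log2 fold of 1.24. HES6, which opposes HES1 and favours differentiation, passed in 52 of 81 chosen cells (64.2%, 52.8 to 74.6) and 180 of 497 others (36.2%, 31.98 to 40.6). NHLH1, a helix-loop-helix factor of young neurons, passed in 38.3% (27.7 to 49.7) and 10.5% (7.91 to 13.5), INSM1 in 34.6% (24.3 to 45.96) and 11.5% (8.80 to 14.6), and BHLHE22 in 33.3% (23.2 to 44.7) and 10.9% (8.27 to 13.9). NEUROD4 was barely past the limit, at 1.00, and at -0.46 once cells with HOX genes, described further on, were left out of both groups. Against the other STMN2 cells, HES6, INSM1, NHLH1 and BHLHE22 stayed at least 2-fold higher. SOX11, a factor of young neurons, lay just under the limit at 0.99 and was higher in 15 of 19 columns.

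**Figure D2:**
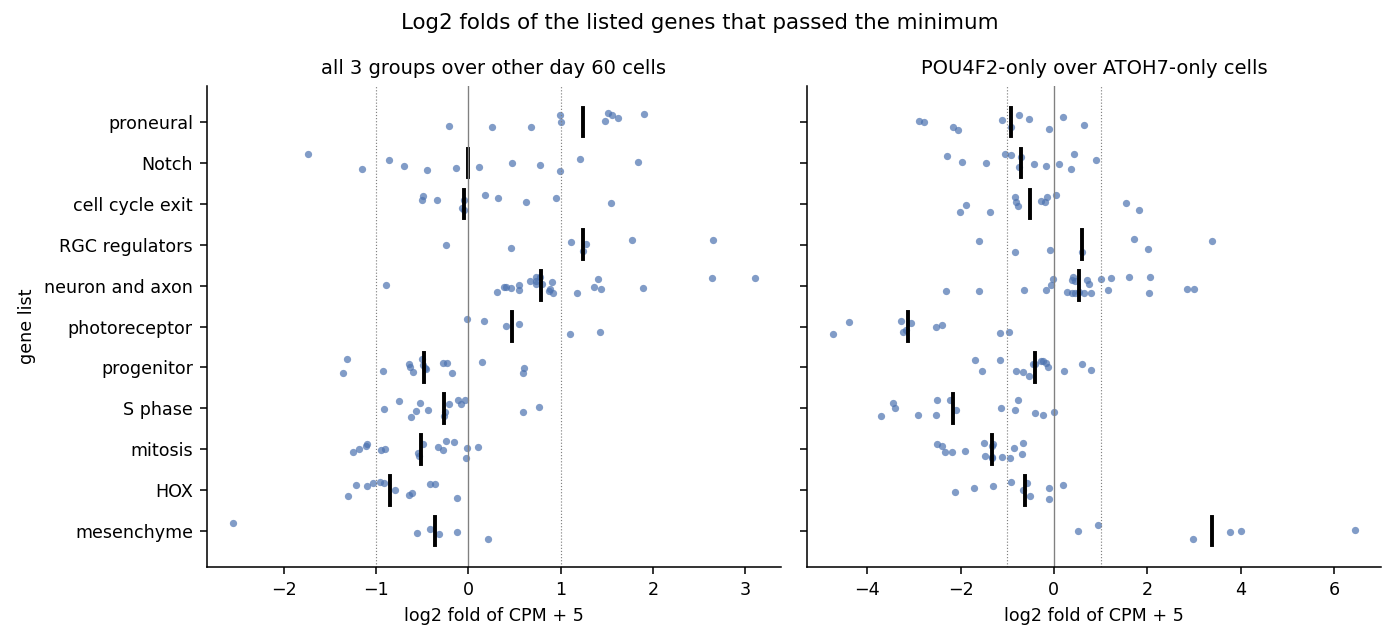
Each point is a listed gene that passed the minimum, placed by its log2 fold of CPM + 5, on the left for the 81 chosen cells over the 497 other cells and on the right for the 27 POU4F2-only over the 36 ATOH7-only cells. Black bars are medians of a list and dotted lines mark 2-fold. On the left the proneural and RGC regulator lists have medians of 1.24 and 1.25. On the right the photoreceptor list, some genes of which reached the minimum through ATOH7-only cells alone, has a median of -3.12. The mesenchyme list on the right has a median of 3.38, resting on 1 cell as described in the text.

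In the Notch pathway, through which a differentiating cell holds its neighbours in the progenitor state, genes differed in both directions. Of 12 measured genes, DLL3 and HEY1 were at least 2-fold higher and NOTCH2 and HES1 lower, with a median of -0.0088. DLL3, a ligand of the pathway that acts inside the cell, passed in 24 chosen cells (29.6%, 20.0 to 40.8) and 70 others (14.1%, 11.2 to 17.5). DLL4, a ligand on the cell surface, was under 20 CPM, but passed in 13 chosen cells (16.0%, 8.83 to 25.9) and 12 others (2.41%, 1.25 to 4.18), and 9 of these 13 were ATOH7-only cells. HES1, the repressor through which Notch holds off neurogenesis, stood at 510.1 CPM in the chosen cells and 1709 CPM in the others, a log2 fold of -1.74. It was still detected in 54 chosen cells (66.7%, 55.3 to 76.8) and 390 others (78.5%, 74.6 to 82.0), so the difference lay more in the level of positive cells, with medians of 400.2 and 1573 CPM, than in their number. The sum was also lower against the other STMN2 cells, at -1.13. HEY1, another effector, passed in 7 of 18 co-positive cells, 4 of 36 ATOH7-only and 4 of 27 POU4F2-only cells, and in 47 of the others.

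Cell cycle genes mostly lay below the other cells in their sums, while the share of cells with MKI67 or TOP2A did not. At least 5 reads of MKI67 or TOP2A, a marker pair of dividing cells, were present in 35 of 81 chosen cells (43.2%, 32.2 to 54.7) and 169 of 497 others (34.0%, 29.8 to 38.4), whose intervals overlap. No S phase gene of 14 passed the 2-fold limit in either direction, 2 had a log2 fold above 0, and the median was -0.26. Of 16 mitotic genes, TPX2, CCNB1, CCNB2 and KIF23 were at least 2-fold lower and none higher, 1 had a log2 fold above 0, and the median was -0.51. The median cell had 567.4 CPM of the mitotic list among the chosen and 428.1 CPM among the others. For the S phase list these values were 223.3 and 424.5 CPM. Against the other STMN2 cells, 0 of 16 mitotic genes passed in either direction (median 0.017). Of 13 S phase genes 1, CDC6, was higher and 0 lower (median 0.11). Of the genes tied to leaving the cycle, only GADD45A of 11 passed, in 45 chosen cells (55.6%, 44.1 to 66.6) against 159 others (31.99%, 27.9 to 36.3). The CDK inhibitor CDKN1A had a log2 fold of -0.51 and CDKN1B one of -0.049.

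ATOH7-only and POU4F2-only cells differed in many genes, and the co-positive cells stood with one or the other depending on the gene. The groups hold 36 and 27 cells, so single cells weigh heavily: of 8326 genes, 1211 (14.5%) were at least 2-fold higher and 1374 (16.5%) lower in POU4F2-only cells. A gene entered if the group with more of it reached the minimum, so it could enter through that group alone. STMN2 passed in 26 of 27 POU4F2-only cells (96.3%, 81.0 to 99.9), 15 of 18 co-positive cells (83.3%, 58.6 to 96.4) and 19 of 36 ATOH7-only cells (52.8%, 35.5 to 69.6), the last close to the 49.5% of other cells. GAP43 ran in the same order, at 81.5% (61.9 to 93.7), 77.8% (52.4 to 93.6) and 44.4% (27.9 to 61.9). SLC17A6, the vesicular glutamate transporter of RGCs, passed in 7 POU4F2-only, 0 co-positive and 2 ATOH7-only cells. It stood at -0.50 when the ATOH7 cells were set against all day 60 cells without 5 reads of ATOH7, POU4F2-only cells included. PRPH passed in 10, 3 and 3 cells, and SNCG, a synuclein abundant in RGCs, in 10, 5 and 1. EBF1 was also at least 2-fold higher in POU4F2-only cells, whereas ONECUT1, ROBO1 and ROBO2 were lower.

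HES6 ran the other way, with 32 of 36 ATOH7-only cells (88.9%, 73.9 to 96.9), 10 of 18 co-positive cells (55.6%, 30.8 to 78.5) and 10 of 27 POU4F2-only cells (37.0%, 19.4 to 57.6), the last close to the 36.2% of other cells. NEUROD1 passed in 23, 8 and 8 of these cells and DLL3 in 14, 7 and 3. When the 45 POU4F2 cells alone were set against all cells without 5 reads of POU4F2, the log2 folds were -0.054 for HES6, -0.035 for NEUROD1 and -0.25 for NEUROD4. The POU4F2 cells thus did not have more of these genes than that group, which includes the ATOH7-only cells. NHLH1 was instead most frequent in co-positive cells, at 12 of 18 (66.7%, 40.99 to 86.7), against 11 of 36 (30.6%, 16.4 to 48.1) and 8 of 27 (29.6%, 13.8 to 50.2). CNTN2 did likewise, at 10 of 18 (55.6%, 30.8 to 78.5), against 3 of 36 (8.33%, 1.75 to 22.5) and 6 of 27 (22.2%, 8.62 to 42.3).

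**Figure D3:**
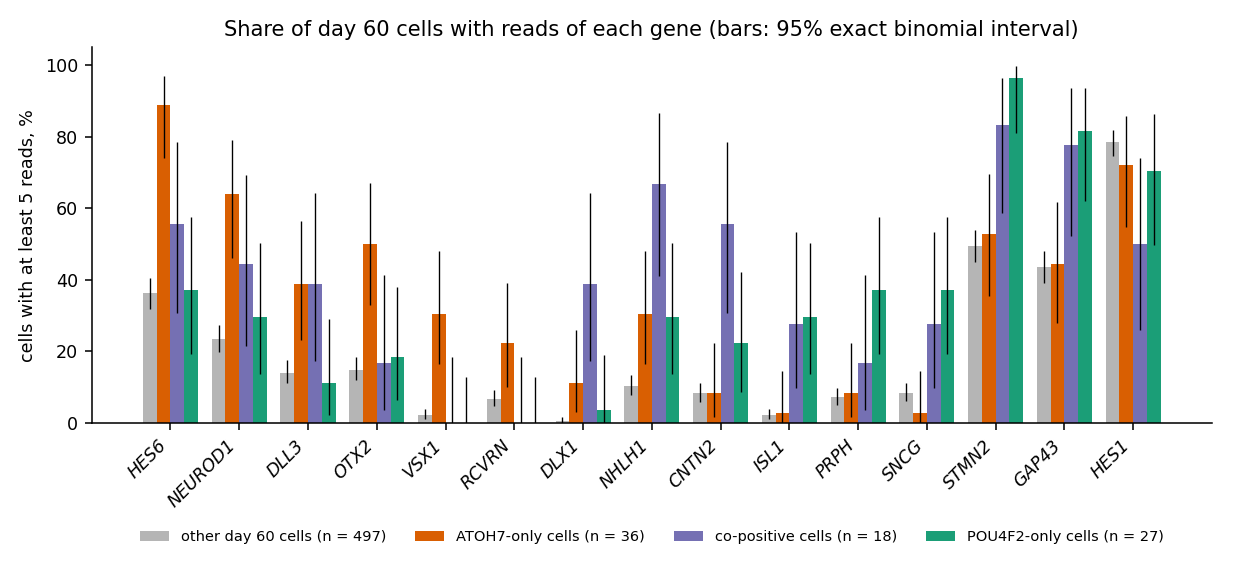
Bars give the percentage of cells with at least 5 reads of each gene in other day 60 cells (497), ATOH7-only (36), co-positive (18) and POU4F2-only cells (27), with 95% exact binomial intervals. HES6 falls from 88.9% to 37.0% from ATOH7-only to POU4F2-only cells while STMN2 goes from 52.8% to 96.3%, and VSX1 and RCVRN have bars only in ATOH7-only and other cells.

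Several genes of photoreceptor precursors were more frequent in ATOH7-only than in POU4F2-only cells, though CRX was not. CRX, a listed photoreceptor gene, passed in 1 of 36 ATOH7-only, 0 of 18 co-positive, 1 of 27 POU4F2-only and 9 of 497 other cells. OTX2, the homeodomain factor above cone, rod and bipolar fates, passed in 18 of 36 ATOH7-only cells (50%, 32.9 to 67.1), 3 of 18 co-positive cells (16.7%, 3.58 to 41.4), 5 of 27 POU4F2-only cells (18.5%, 6.30 to 38.1) and 74 of 497 others (14.9%, 11.9 to 18.3). In the POU4F2-only cells, 9 of 10 measured photoreceptor genes were at least 2-fold lower than in ATOH7-only cells, against 16.5% of all genes. Their median log2 fold was -3.12, against -0.0044 over all genes. Some of the 10, such as ARR3 (31.4 and 1.91 CPM) and AIPL1 (48.8 and 0.573 CPM), reached the minimum only through the ATOH7-only cells. The count and the median thus follow in part from the rule of entry. RCVRN, which encodes the calcium sensor recoverin, passed in 8 of 36 ATOH7-only cells (22.2%, 10.1 to 39.2) and in none of the 45 cells with POU4F2. It also passed in 33 of 497 others (6.64%) and in 26 of the 246 other STMN2 cells (10.6%, 7.02 to 15.1). IMPG2, of the matrix around photoreceptors, passed in 9 ATOH7-only, 0 co-positive and 1 POU4F2-only cells. VSX1, a homeodomain factor of bipolar cells, passed in 11 of 36 ATOH7-only cells (30.6%, 16.4 to 48.1), in 0 of 18 co-positive and 0 of 27 POU4F2-only cells, and in 11 of 497 others (2.21%, 1.11 to 3.93). Of the 26 chosen cells with OTX2, 23 had NEUROD1, 23 had HES6, 10 had VSX1 and 1 had ISL1. Over all chosen cells, OTX2 and the thyroid hormone receptor THRB were 2 of 6 measured photoreceptor genes past 2-fold, OTX2 at 1.42. OTX2 was at -0.41 when the 45 POU4F2 cells were set against all day 60 cells without 5 reads of POU4F2, ATOH7-only cells included. Against the other STMN2 cells 0 of these 6 genes passed in either direction, with a median of -0.31. Genes of horizontal and amacrine cells were sparse, with 3 measured and none past 2-fold in the chosen cells, among them FOXN4 in 9 chosen cells and 55 others and PROX1 in 15 and 55.

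Cell cycle genes were lower in POU4F2-only than in ATOH7-only cells. Relative to ATOH7-only cells, POU4F2-only cells had 9 of 14 S phase genes and 12 of 16 mitotic genes at least 2-fold lower and none higher, with medians of -2.16 and -1.33. Among S phase genes, the replication helicase subunit MCM2 passed in 7 of 36 ATOH7-only and 0 of 27 POU4F2-only cells and MCM3 in 12 and 2, whereas PCNA, the clamp of the replication fork, passed in 9 and 7. At least 5 reads of MKI67 or TOP2A were present in 12 of 27 POU4F2-only cells (44.4%, 25.5 to 64.7), 5 of 18 co-positive cells (27.8%, 9.70 to 53.5) and 18 of 36 ATOH7-only cells (50%, 32.9 to 67.1). ATAD2, a chromatin protein of dividing cells, and MYBL1 were among the 8 genes most in favour of ATOH7-only cells, with 12 and 16 of these cells and 0 and 1 of the POU4F2-only cells. The 12 measured genes tied to leaving the cycle went both ways, with a median of -0.52. CDKN1A, an inhibitor of the cycle, and CCND3 were at least 2-fold higher in POU4F2-only cells, and BTG2, GADD45G and E2F1 lower. CDKN1A passed in 15 of 27 POU4F2-only cells and 10 of 36 ATOH7-only cells.

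The genes most in favour of POU4F2-only cells were MGP, PCP4L1, LGALS1, AMMECR1L, ZNF804A, COL3A1, NUAK2 and ISL1, and 3 of them rest on 1 cell. That cell, in column 17, had 84.4 CPM of POU4F2, 68610 CPM of MGP, 7027 CPM of COL3A1 and 262 CPM of STMN2, and no read of ELAVL4 or ISL1. It held 90.4% of the MGP reads, 63.45% of the COL3A1 reads and 66.6% of the LGALS1 reads of all chosen cells. Of the mesenchyme list, 4 of 6 genes were higher in POU4F2-only cells with a median of 3.38, and without this cell 2 of 4 with a median of 0.60. The counts of the photoreceptor, S phase and mitosis lists without it were 9 of 10, 9 of 15 and 12 of 16, all lower. ISL1 was at a log2 fold of 3.39 in this comparison, and at 4.49 without the cell with the most reads in each group. All 68 ISL1 reads of the ATOH7-only cells came from 1 cell, so that step left this group without a read. The value of 4.49 thus rests on the added 5 CPM and is no check on the fold. ZNF804A passed in 7 POU4F2-only, 4 co-positive and 1 ATOH7-only cells, and PCP4L1 in 6, 1 and 0.

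Outside the lists, the highest fold over the other day 60 cells was that of FABP3, a fatty acid binding protein, at 4.22, but over 50% of its reads came from 1 cell and it was higher in 9 of 19 columns. CHRNA3, a subunit of nicotinic acetylcholine receptors, was the most evenly shared of the leading genes, with at least 5 reads in 37 of 81 chosen cells (45.7%, 34.6 to 57.1) and 61 of 497 others (12.3%, 9.52 to 15.5), a log2 fold of 2.61 and 7.58% of the reads in its highest cell. It passed in 14 ATOH7-only, 12 co-positive and 11 POU4F2-only cells and was higher in 15 of 19 columns. The other genes among the 15 leaders, beside those named above, were PPP1R1A and PPP1R17, inhibitors of protein phosphatases, the actin-binding CORO2B, the vesicle GTPase RAB3B, NFASC, which encodes the axonal adhesion protein neurofascin, and RGS16, TP53I11, RASD1 and TACC2, with log2 folds of 1.73 to 2.29. RGS16, a regulator of G protein signalling, was the most common of them, at 57 chosen cells (70.4%) and 209 others (42.1%). Ranked by the share of positive cells, WDR72 came first, with 13 chosen cells (16.0%, 8.83 to 25.9) and 2 others (0.402%, 0.0488 to 1.45), of which 8 were ATOH7-only, 4 co-positive and 1 POU4F2-only. DLX1, DLL4, ISL1, VSX1, IGFBPL1, FSTL4, FAM110A, CORO2B and PPP1R17 followed.

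Among the genes that were lower, TIMP1, an inhibitor of matrix metalloproteinases, had 132.1 CPM in the chosen and 801.0 CPM in the other cells, a log2 fold of -2.56. It was at -0.38 against the other STMN2 cells. MT2A, DAB2, TPMT, AC022400.7, DLK1, PTRH2, WWP1, LAMP5 and PAX2 followed, at -2.49 to -1.74. PAX2, a factor of the optic stalk and of other regions, passed in 6 chosen cells (7.41%) and 92 others (18.5%), and remained lower against the other STMN2 cells, at -1.63. MITF, of pigment epithelium, passed in 0 chosen cells, which allows a share of cells past the limit of up to 3.70% (3 counts of the total), and in 43 others. Progenitor genes were slightly lower, with 2 of 16 (SFRP2 and ZIC1) past 2-fold and a median of -0.48. Those of the eye field were present in most chosen cells: SIX3 had at least 5 reads in 68 of 81 (84.0%, 74.1 to 91.2) and PAX6 in 66, against 335 (67.4%, 63.1 to 71.5) and 363 of the 497 others.

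HOX genes, which mark the hindbrain and spinal cord and are silent in the retina, were present in part of the chosen cells. Counting a cell as HOX-positive where at least 3 of 28 HOX genes had a read at 50000 reads, 30 of 81 chosen cells (37.0%, 26.6 to 48.5) and 228 of 497 others (45.9%, 41.4 to 50.4) were HOX-positive. The share was 44.4% (27.9 to 61.9) in ATOH7-only, 27.8% (9.70 to 53.5) in co-positive and 33.3% (16.5 to 53.96) in POU4F2-only cells. Without thinning these shares were 50%, 50% and 40.7%. Of 12 measured HOX genes, HOXA3, HOXA5, HOXB2 and HOXB8 were at least 2-fold lower in the chosen cells and none higher, with a median log2 fold of -0.85. HOXB8 turned to 0.35 when 1 read sufficed to choose a cell. Summed HOX reads had a median of 65.7 CPM per chosen cell and 184 CPM per other cell, and 832 and 1803 CPM within the HOX-positive cells of each group. Of the 14 ISL1 cells, 1 was HOX-positive (7.14%, 0.181 to 33.9), and of the 26 OTX2 cells 11 were (42.3%, 23.4 to 63.1), with intervals that overlap. Without thinning the counts were 4 of 14 and 13 of 26. With HOX-positive cells left out of both groups, 51 chosen and 269 other cells remained, and of 7999 genes 555 (6.94%) were higher and 594 (7.43%) lower. Of these remaining cells, 8 chosen and 49 others still had reads of at least 3 HOX genes without thinning. The RGC regulators then had 7 of 7 genes higher (median 1.53) and the neuron and axon genes 19 of 23 (median 1.54). Markers of other cells were lower beside them, with 6 of 6 mesenchyme genes (median -2.81), 2 of 4 pigment epithelium genes, 2 of 5 Müller glia genes and 5 of 16 progenitor genes, and their part in the result was not tested. ISL1 stood at 3.14 among these cells. Of the genes of sensory and hindbrain neurons none reached the minimum. Markers of pigment epithelium, mesenchyme and Müller glia had no gene at least 2-fold higher over the other day 60 cells and 1 of 4, 1 of 6 and 2 of 5 lower, while 3 of 6 mesenchyme genes were higher over the other STMN2 cells. Both mesenchyme counts rested on the MGP cell of column 17: without it, 5 of 6 genes were lower than in the other day 60 cells (median -1.80), and 0 of 6 were higher and 1 lower than in the other STMN2 cells. Stress genes had 0 of 8 past the limit in either direction. Their summed levels moved with the choice in one direction: pigment epithelium genes stood at 151.9 CPM in the chosen and 276.9 CPM in the other cells, and mesenchyme genes at 1959 and 2618 CPM, or at 605 CPM in the chosen cells without the MGP cell. Their part in the differences was not tested.

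At the later ages few cells met the same rule. At day 90 it held for 13 of 661 cells (1.97%, 1.05 to 3.34), all by ATOH7, and POU4F2 had no read in any of the 661 cells, which allows a share of cells with a read of up to 0.454% (3 counts of the total) and does not limit the share that express the gene. Of these 13 cells 10 had at least 5 reads of OTX2, 5 of RCVRN, 5 of STMN2 and 1 of ISL1. On the first day 200 chip, 4 of 356 cells (1.12%, 0.307 to 2.85) met it, all by ATOH7, and on the second, 4 of 381 (1.05%, 0.287 to 2.67), all by POU4F2. The 4 cells of the second chip all had STMN2 and GAP43, and none had ISL1. Of these 4 cells, 2 had NEUROD1, 2 had RCVRN, 1 had OTX2 and 2 had TFAP2A, a listed gene of horizontal and amacrine cells. The sum of ATOH7 reads was 27.2 CPM (26.2 to 28.2) at day 60, 6.22 CPM (5.78 to 6.69) at day 90 and 1.11 CPM (0.907 to 1.34) on the first day 200 chip, with no read on the second. Day 60 and day 90 have 1 chip each, so age and chip cannot be told apart.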

How the data were processed

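Cells of H9 (CRX-GFP) retinal organoids were captured on Fluidigm C1 chips and sequenced after SMART-Seq v4. The authors trimmed reads with Trimmomatic 0.33, aligned them to GRCh38.p7 with STAR 2.4.0 and used HTSeq 0.6 for gene counts. The deposited values are raw counts of reads for 1976 cells. The parameters given name no strand setting. The study removed day 60 cells under 100000 reads, yet 37 cells of the deposited table have fewer, 3 of them among those described here. All cells were kept.

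A row named GFP-Spike was left out, leaving 24414 gene rows. It held no reads at day 60 or day 90, while the study reports a high spike-in level at day 90. The row is therefore not a measure of the study's spike-ins. Cells were mapped to 79 chip columns by the deposited barcode table, and the columns share 40 row barcodes, which repeat on each column by the chip's design. Reads were summed over cells and scaled to CPM, and folds were taken on log2(CPM + 5). A gene was compared at 20 CPM and reads in 10% of the cells of the higher group, and called at 2-fold. The genes named were those of the lists, the 15 highest and 10 lowest folds over other cells, the 8 highest and 8 lowest folds of POU4F2-only over ATOH7-only cells (with reads in 20% of cells), and the 10 genes most enriched by positive cells, ranked by the ratio of percentages plus 1, a ratio set after the data had been seen. The chosen cells and the lists were fixed with earlier results of these data known. Lists whose members lacked a row lost them, and such genes were not analysed here. Intervals were computed with scipy 1.17.1, doublets with scrublet in scanpy 1.11.5, tables with pandas 2.3.3 and numpy 2.4.6. Steps were tested on simulated data. Alternatives to the read limit, depth, filters, pseudocount and comparison cells are given in the closing section. A few listed genes are not reported here.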

Additional observations from a re-analysis of the deposited data

How the results depend on the processing

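No paired analysis was possible because the columns of 1 chip are not replicates and no test was made, and the within-column directions are counts only. The chosen cells numbered 51 with at least 150000 reads and at most 10% mitochondrial reads, 45 by POU4F2 alone and 51 without HOX-positive cells. Genes higher in them were 503 under the read and mitochondrial limits, 500 by POU4F2 alone, 555 without HOX-positive cells, 96 with a pseudocount of 20 CPM, 630 with no filter on low values and 49 with a minimum of 100 CPM. Genes lower were 168 at a limit of 1 read, 524 under the read and mitochondrial limits, 475 by ATOH7 alone, 673 by POU4F2 alone, 594 without HOX-positive cells, 48 at 20 CPM, 727 with no filter and 30 at 100 CPM. Without the cell with the most reads of each gene in each group, chosen after the data had been seen, 146 were higher and 590 lower. That step takes 1 cell from 81 and 1 from 497, so it lowers the smaller group's sums more. For POU4F2-only over ATOH7-only cells, 691 were higher and 772 lower at 20 CPM, 2224 and 2718 with no filter, and 300 and 273 at 100 CPM. The log2 fold of ISL1 stayed above 2-fold under each alternative tried, from 1.33 by ATOH7 alone to 3.42 by POU4F2 alone, with an SD over columns of 2.63. The HOX-positive and dividing shares stayed within their intervals. The 79 named genes gave 1501 values under 19 alternatives, of which 11 moved by more than the gene's SD over columns and 9 others changed sign. Columns held 1 to 10 chosen cells, so this SD is a wide tolerance: the 2.63 of ISL1 is nearly its fold of 2.65. A low count of moved values therefore does not show that the folds are stable. Changes of sign were counted only for genes past 2-fold over the other day 60 cells in the main comparison. These 9 were HOXB8 to 0.35 at 1 read, SLC17A6 to -0.50 by ATOH7 alone, NEUROD4 to -0.46 without HOX-positive cells, and by POU4F2 alone VSX1 to -2.07, MYBL1 to -0.51, NEUROD1 to -0.035, NEUROD4 to -0.25, HES6 to -0.054 and OTX2 to -0.41. The cause was not tested. Counts of genes past a fold are for these reasons a description of the setting as much as of the cells, and with 18 to 36 cells a group, shares under about 10% rest on a few cells.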
